A study of Mus musculus with 14 samples.

Results

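Integrins are the main receptors by which cells hold on to extracellular matrix, and each receptor is a pair of 1 alpha and 1 beta subunit. The 10 integrin subunit genes described here are Itga1, Itga4, Itga5, Itga6, Itga8, Itga9, Itga11, Itgb1, Itgb3 and Itgb5, of 50686 genes in the count table. They were taken as a list of symbols without a filter on level, and the list was chosen with earlier results of these data known. The RNA came from mouse embryonic stem cells (ESCs) and from the embryoid bodies (EBs) they form, cell aggregates that differentiate without directing signals, of a line with a stable short hairpin RNA against Dis3l2 (shDIS3L2) and of a control line with a hairpin against LacZ (shLacZ). Both ESC lines carried an Osr1-GFP reporter. At d0 the cells were undifferentiated in LIF and 2i, and EBs were then formed in hanging drops with serum and without LIF and 2i and sampled every 2 days from d2 to d12. Each line and day is 1 library, so that 14 libraries were available, and the EBs are a mixture of cell types whose make-up the labels do not give.

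The beta subunit of an integrin carries the signal across the membrane and the alpha subunit does most to choose the ligand. Itgb1 is the common partner of all 7 alpha subunits in the list, whereas Itgb3 and Itgb5 pair with Itgav, and Itgb3 also with Itga2b on platelets. Itga1 and Itga11 form collagen receptors, Itga6 forms laminin receptors, Itga5 and Itga8 bind matrix proteins with an RGD site such as fibronectin and nephronectin, and Itga4 and Itga9 bind Vcam1, tenascin and other fibronectin sites. The receptor of Itga8 with Itgb1 is known for its need in kidney development.

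Shown here are 4 of the genes, chosen for their differences between the lines among the better counted subunits, with the 250 bases before their start, from the RefSeq promoter table of GRCm38.p6 and in the direction of the gene. The capitals mark matches to 5 short motifs searched on both strands, which are the GC box GGGCGG, the TATA box TATAAA, the TEAD motif GGAATG, the AP-1 motif TGANTCA and the E-box CACCTG. The windows lie at chr2:79255176-79255425 on the plus strand for Itga4, at chr2:12301945-12302194 on the minus strand for Itga8, at chr9:118711442-118711691 on the plus strand for Itga9 and at chr16:33829415-33829664 on the plus strand for Itgb5.
Itga4: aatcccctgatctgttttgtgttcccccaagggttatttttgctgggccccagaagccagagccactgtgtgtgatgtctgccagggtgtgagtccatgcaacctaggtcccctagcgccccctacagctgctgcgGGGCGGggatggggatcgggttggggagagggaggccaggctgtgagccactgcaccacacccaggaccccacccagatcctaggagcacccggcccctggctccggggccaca
Itga8: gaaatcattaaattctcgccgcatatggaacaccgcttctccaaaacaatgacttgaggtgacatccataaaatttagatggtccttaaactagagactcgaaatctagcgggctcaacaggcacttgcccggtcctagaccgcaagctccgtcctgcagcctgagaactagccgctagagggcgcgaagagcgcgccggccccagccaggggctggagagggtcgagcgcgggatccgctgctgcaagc
Itga9: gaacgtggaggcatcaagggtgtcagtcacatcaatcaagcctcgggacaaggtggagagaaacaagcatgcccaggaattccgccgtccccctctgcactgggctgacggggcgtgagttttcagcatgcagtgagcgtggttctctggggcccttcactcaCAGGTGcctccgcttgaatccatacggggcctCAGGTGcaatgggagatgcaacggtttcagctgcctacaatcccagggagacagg
Itgb5: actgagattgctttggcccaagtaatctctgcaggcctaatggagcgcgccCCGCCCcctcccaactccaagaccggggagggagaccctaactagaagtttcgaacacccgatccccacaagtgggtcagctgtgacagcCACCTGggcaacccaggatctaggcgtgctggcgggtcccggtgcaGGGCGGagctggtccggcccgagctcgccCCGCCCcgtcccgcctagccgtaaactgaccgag
The table held 8 of the 10 genes, without Itga6 and Itgb3. A GC box was matched in the windows of Itga4, Itga5, Itgb1 and Itgb5, with 3 matches in Itgb5, and 32.7% of the 32851 promoters in the table hold one. The E-box was matched in Itga9 with 2 matches and in Itga11 and Itgb5 with 1 each, against 17.2% of all promoters, and the TEAD motif in Itgb1 with 1, against 12.6%. No TATA box or AP-1 match stood in any of the 8 windows, and these letters are present in 12.4% and 6.75% of all promoters. None of the 5 motifs is in the window of Itga8. The start used by RefSeq for Itga9 lies inside the gene as Ensembl draws it, whose left end is at 118606690 on chromosome 9.

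Total counts per library lay between 7178712 (shLacZ d4) and 39888099 (shLacZ d0), and 3 counts, taken as the floor, equal 0.418 CPM (counts scaled to a library total of 1000000) in the former and 0.0752 CPM in the latter. Dis3l2, the targeted gene, stood in shDIS3L2 at 0.137 of its shLacZ level at d0 (95% interval 0.111 to 0.167), at 0.552 at d6 (0.449 to 0.675) and at 0.754 at d12 (0.609 to 0.934). At d8 (0.971, 0.837 to 1.13) and d10 (0.95, 0.788 to 1.15) the libraries labelled shDIS3L2 were not detectably lower, so a direction drawn from these days rests on the labels alone. Of the summed marker lists, pluripotency genes summed to 2846 CPM (shLacZ) and 2046 CPM (shDIS3L2) at d0. From d6 on they summed to between 318 and 386 CPM in shLacZ and between 43.7 and 248 CPM in shDIS3L2. Over the same 4 days smooth muscle markers summed to between 122 and 194 CPM in shLacZ and between 525 and 2172 CPM in shDIS3L2, mesenchyme markers to 305 to 589 and 431 to 1700.4 CPM, and visceral endoderm markers to 1959 to 4155 and 398 to 1241 CPM. Over d6 to d12, edgeR called 5 of 5 smooth muscle and 7 of 9 mesenchyme markers higher in shDIS3L2. It called 7 of 7 visceral endoderm and 4 of 6 pluripotency markers lower there, where 19.6% of all 17164 genes tested were higher and 18.7% lower. Over these days at most 1 marker of each list was at 0 counts, and their part in the subunit levels was not tested. In such mixed samples, fewer cells of a type and less RNA per cell cannot be told apart.

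**Figure D1:**
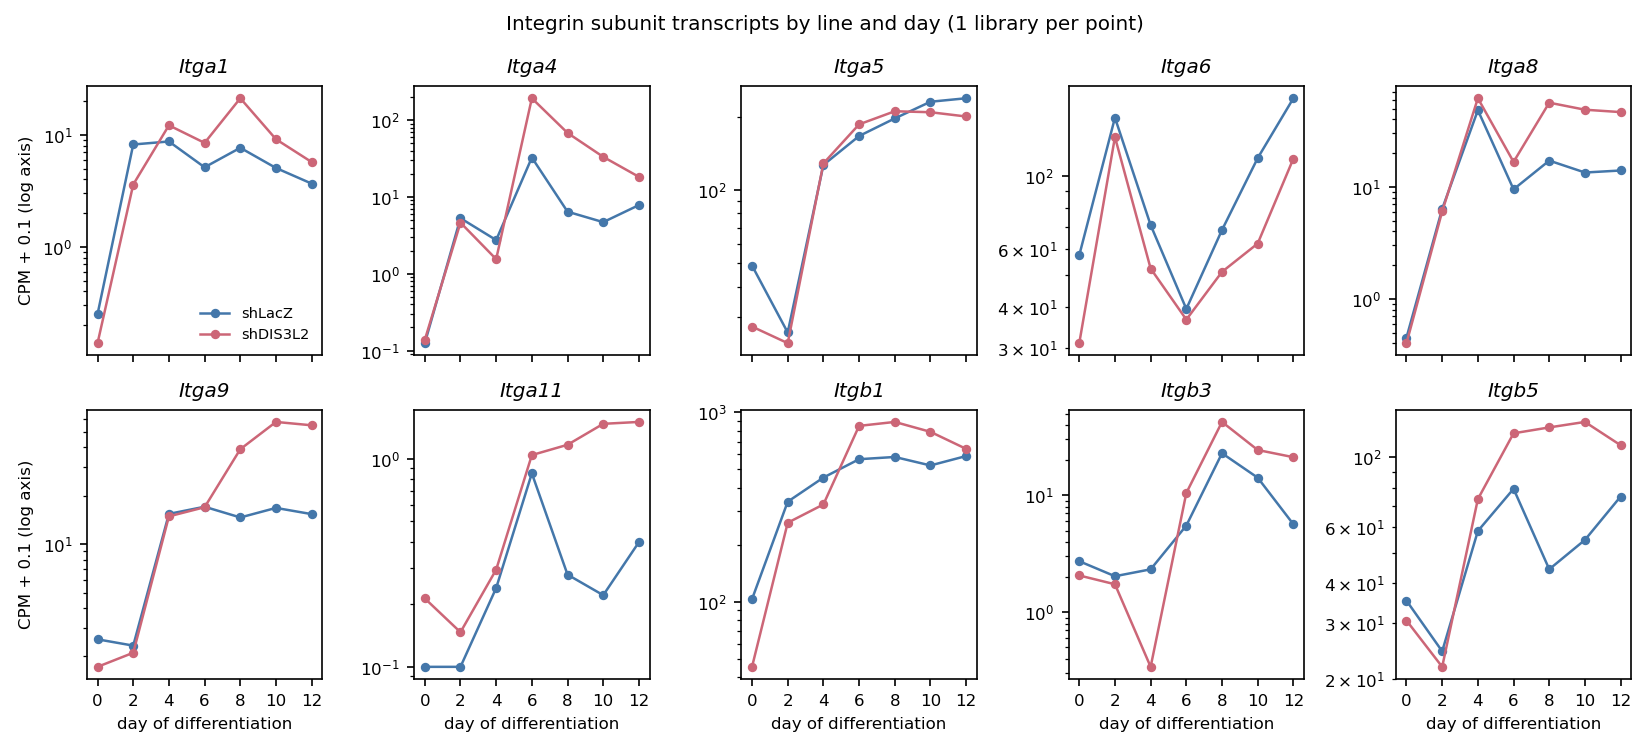
CPM (plus 0.1, log axis) of each integrin subunit at each day, with 1 point per library, shLacZ in blue and shDIS3L2 in red. From d6 on the red points of Itga11, Itgb1 and Itgb5 lie above every blue point, while those of Itga5 run together with the blue ones and those of Itga6 lie below them on each day. For Itga11 at d6 both libraries held 10 reads, so the points do not differ there beyond counting error. The share of all genes with lines so separated was not counted, and the separation is not read as a result.

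Most of these genes stood higher over d6 to d12 than in the ESC state. The days d6 to d12 were compared with d0 in a fit with a term for the line. It takes the 2 lines in place of replicates, with 1 library per line and day. Of the 20050 genes tested, 41.3% rose and 35.4% fell. Of the 10 subunits, 9 rose (edgeR quasi-likelihood test, Benjamini-Hochberg adjusted p under 0.05) and none fell. Their median log2 fold change was 2.83 beside 0.25 over all genes. Itga4 rose most, by a log2 fold change of 8.85 (standard error 1.3, edgeR adjusted p = 0.00011), from 1 read in each library of d0, followed by Itga8 at 5.47 (0.53, adjusted p = 5.7e-06) and Itga1 at 5.45 (0.68, adjusted p = 3.4e-05). Itgb5 (0.81) and Itga5 (1.87) rose least, and Itga6 did not pass, at 0.18 (0.15, edgeR adjusted p = 0.302). With library totals in place of TMM scaling, the median of all genes moved from 0.25 to 0.82, the calls split into 10362 higher and 5191 lower instead of 8280 and 7100, and the log2 fold change of Itga6 became 0.76 and passed. Pairs of neighbouring days carried unequal shares of the rise. Between d0 and d2, Itga8 rose 17.8-fold in shLacZ (95% interval 10.3 to 33.3) and 19.6-fold in shDIS3L2 (9.67 to 46.5), and between d2 and d4 Itga5 rose 4.89-fold and 5.49-fold and Itga9 6.85-fold and 7.36-fold. The intervals of such ratios of reads cover counting error only. These ratios use library totals. The TMM factors were 0.764 (shLacZ) and 0.642 (shDIS3L2) at d0 against 1.09 and 1.05 at d2, so rises from d0 are smaller with TMM scaling.

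The order of the levels was read per exon length, as RPKM (CPM per kilobase of exon), over d6 to d12. In shLacZ, Itgb1 led with a median of 141 RPKM, followed by Itga5 (48.0), Itgb5 (19.3), Itga6 (10.1), Itga9 (2.08), Itga8 (1.85), Itgb3 (1.66), Itga1 (0.835), Itga4 (0.503) and Itga11 (0.0463). Itgb1, Itga5 and Itga11 stood apart from their neighbours in that order, and so did Itga6 from Itga9, whereas the ranges over the 4 days overlapped for Itgb5 and Itga6 and for each neighbouring pair from Itga9 down to Itga4. In shDIS3L2 the order was Itgb1 (201), Itga5 (46.0), Itgb5 (36.1), Itga8 (6.45), Itga6 (6.28), Itga9 (6.09), Itgb3 (3.84), Itga4 (3.62), Itga1 (1.46) and Itga11 (0.238). The neighbours from Itga8 down to Itga1 overlapped, and Itgb5 stood apart from Itga8.

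**Figure D2:**
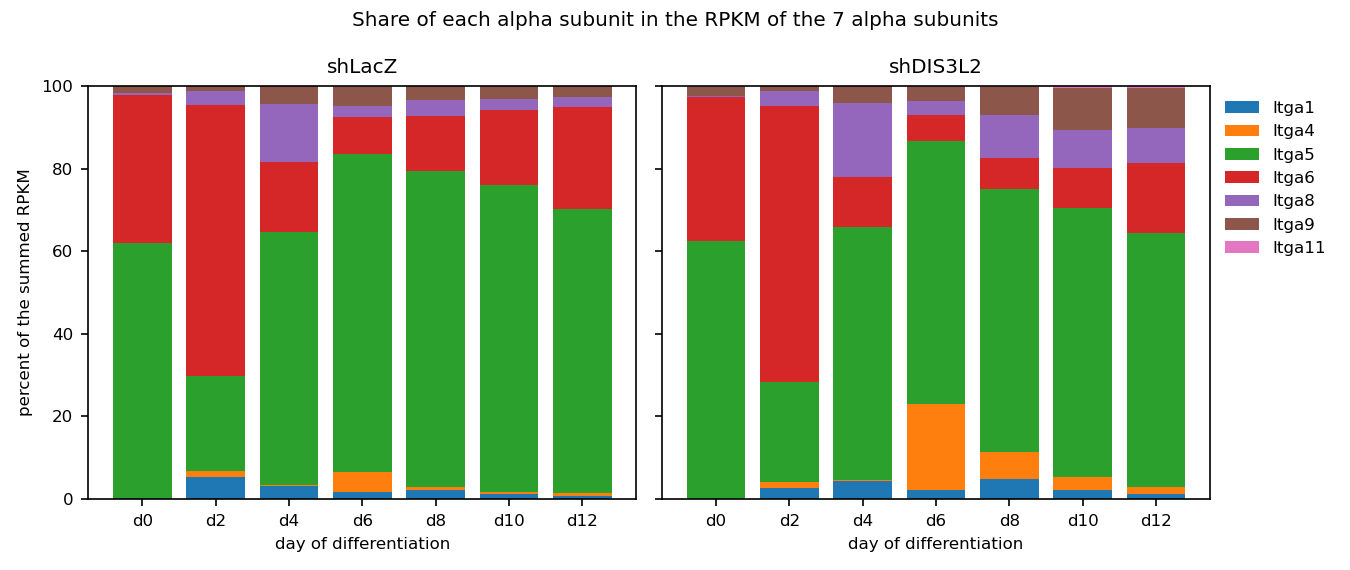
Percentage of the summed RPKM of the 7 alpha subunits of the list that each holds, by day, in shLacZ (left) and shDIS3L2 (right), with 1 library per bar. Itga6 holds most of the sum at d2 in both lines and Itga5 from d4 on.

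Among the 7 alpha subunits of the list, the fibronectin receptor chain Itga5 held 61.9% of their summed RPKM at d0 in shLacZ and 62.4% in shDIS3L2. At d2 the laminin receptor chain Itga6 held 65.8% and 66.8%, and Itga5 fell to 22.9% and 24.1%. From d6 to d12, Itga5 held between 68.8 and 77.0% in shLacZ and between 61.3 and 65.1% in shDIS3L2. The remaining share in shDIS3L2 was taken in part by Itga4, with 21.0% at d6 against 4.78% in shLacZ, and by Itga9, with 10.4% at d10 against 3.12%. These shares compare single libraries and have no replicate check. The sums leave out the alpha subunits outside the list. At d2 Itga3, another laminin receptor chain, stood at 10.3 RPKM in shLacZ and 14.8 RPKM in shDIS3L2. Itga6 stood at 16.7 and 14.6 RPKM there. At d12 Itga3 stood at 21.2 and 15.0 RPKM and Itgav at 12.3 and 13.4 RPKM, beside 53.5 and 45.0 RPKM for Itga5.

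The lines were compared over d6 to d12 in a fit with a term for the day, which takes the 4 days of 1 series in place of replicates and so does not test the lines against other cultures. Of the 10 subunits, all of which passed the filter on low counts, 8 were higher in shDIS3L2, 1 (Itga6) was lower and 1 (Itga5) did not pass, where 19.6% of the 17164 genes tested were higher and 18.7% lower. Their median log2 fold change was 1.03 beside 0.02 over all genes.

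**Figure D3:**
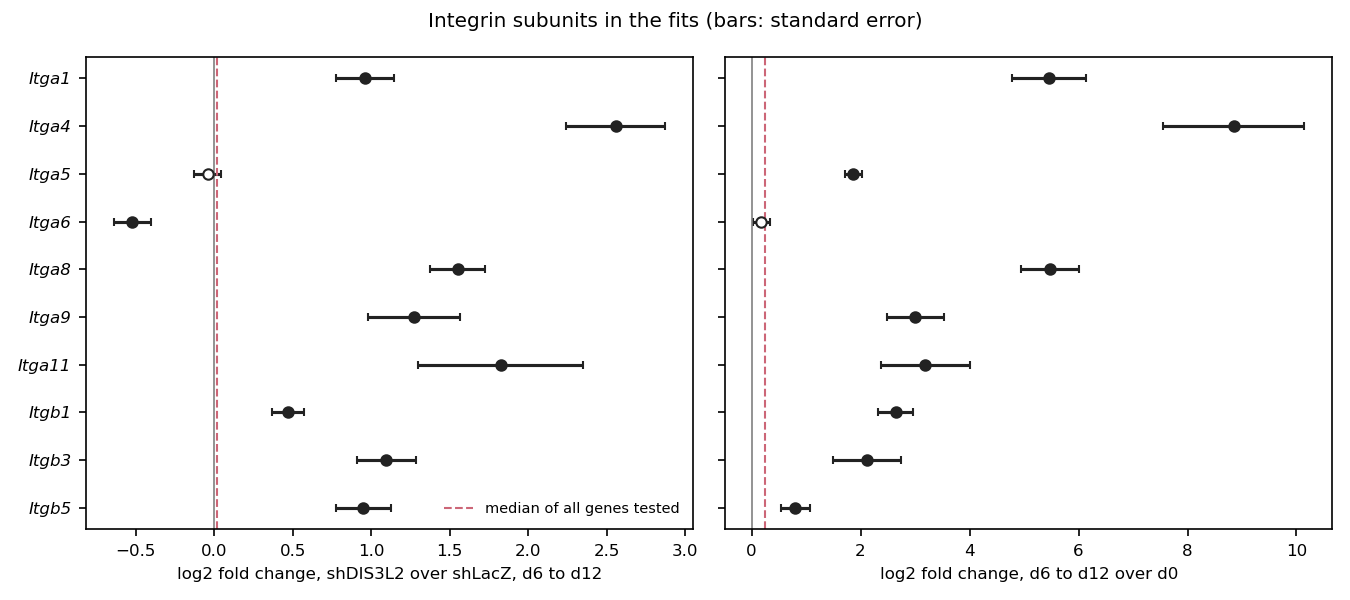
Log2 fold changes of the 10 subunits between the lines over d6 to d12 (left) and from d0 to d6 to d12 (right) in edgeR, with standard errors as bars, filled points for adjusted p under 0.05 and the median of all genes tested as a dashed line. Itga4 lies farthest to the right in both panels, at 2.56 and 8.85, Itga5 lies at -0.04 on the left and Itga6 at -0.52.

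Itgb1, the common beta subunit (chromosome 8, 128685654 to 128733200 of GRCm38), stood at 103, 337, 452, 566, 581, 524 and 588 CPM from d0 to d12 in shLacZ. In shDIS3L2 it stood at 45.1, 261, 326, 849, 890.4, 789 and 641 CPM. The lines thus changed places between d4 and d6, and from d6 on the levels of the lines did not overlap, for which no share over all genes was counted. On a single day the fold of shDIS3L2 over shLacZ was 0.438 at d0 (95% interval 0.411 to 0.468), 0.721 at d4 (0.691 to 0.752), 1.5 at d6 (1.45 to 1.55), 1.53 at d8 (1.49 to 1.57), 1.51 at d10 (1.46 to 1.56) and 1.09 at d12 (1.05 to 1.13). Over d6 to d12 the log2 fold change was 0.47 (standard error 0.10, edgeR adjusted p = 0.0114), and the line difference of d6 to d12 exceeded that of d0, d2 and d4 by 0.98 (0.18, edgeR adjusted p = 0.0116). Genes of chromosome 8 as a whole were lower in shDIS3L2 on each day, with a median log2 fold that was 0.168 below that of the other chromosomes at d0 (difference -0.168) and 0.404 below at d10 (difference -0.404), and the part of this in the values of Itgb1 was not tested.

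The collagen receptor chains were among the lowest subunits per exon length from d6 on. Itga1 (chromosome 13, 114958079 to 115101964) was counted at 0.150, 8.11, 8.64, 5.04, 7.57, 4.96 and 3.57 CPM from d0 to d12 in shLacZ and at 0.0378, 3.5, 12.1, 8.39, 21.2, 9.05 and 5.62 CPM in shDIS3L2. It was lower in shDIS3L2 at d2 (fold 0.432, 0.328 to 0.565) and higher on each day from d4 on, most at d8 (2.79, 2.29 to 3.43), and the levels of the lines overlapped. Its log2 fold change over d6 to d12 was 0.96 (standard error 0.19, edgeR adjusted p = 0.0079). Pelo lies within the span of Itga1 on the same strand without a shared exon base, and it did not pass in the same fit (log2 fold change -0.26, edgeR adjusted p = 0.143).

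Itga11 (chromosome 9, 62677826 to 62783982), a receptor chain of mesenchymal cells, was the rarest subunit, with 0, 0, 1, 10, 3, 1 and 3 reads from d0 to d12 in shLacZ and 3, 1, 4, 10, 21, 29 and 15 reads in shDIS3L2. It reached 1 CPM in 3 libraries, those of shDIS3L2 at d8, d10 and d12. From so few reads the ratio was 6.02 at d8 (1.80 to 31.5), 11.3 at d10 (1.88 to 463) and 4.72 at d12 (1.34 to 25.4), while at d6 it was 1.25 (0.468 to 3.36). The log2 fold change over d6 to d12 was 1.82 (0.52, edgeR adjusted p = 0.0314), and it did not pass when d8, d10 or d12 was left out (adjusted p = 0.129, 0.114 and 0.0749). Without these days the calls over all genes fell from 6574 to 3449, 3336 and 5477.

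The laminin receptor chain Itga6 (chromosome 2, 71745616 to 71858416) was the only subunit of the 10 that was lower in shDIS3L2 over d6 to d12. In shLacZ it was counted at 57.4, 151, 70.9, 39.3, 68.5, 114 and 173 CPM from d0 to d12 and in shDIS3L2 at 30.9, 132, 52.2, 36.5, 51.0, 62.3 and 113 CPM. Both lines rose to d2, fell from there to d6 and rose again to d12, where shLacZ was above its level of d2 and shDIS3L2 was not, and shDIS3L2 was lower on each of the 7 days. By library totals the fold between the lines was closest to 1 at d6 (0.928, 0.811 to 1.06) and farthest from it at d0 (0.539, 0.497 to 0.584) and d10 (0.548, 0.504 to 0.597). The median log2 fold of all genes at d0 was -0.32 by library totals and -0.06 with TMM, so the place of d0 depends on the scaling. The log2 fold change of Itga6 was -0.52 over d6 to d12 (standard error 0.12, edgeR adjusted p = 0.0144) and -0.50 over the 7 days (0.10, adjusted p = 0.0275). The former did not pass without d8 (adjusted p = 0.0576), d10 (0.0657) or d12 (0.0523).

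Itga5 (chromosome 15, 103344286 to 103366763), the fibronectin receptor chain, was the alpha subunit with the highest RPKM from d4 on. In both lines it fell to d2 and stood above its level of d0 from d4 on. In shLacZ it was counted at 48.8, 25.9, 126, 166, 196, 229.99 and 238 CPM and in shDIS3L2 at 27.3, 23.4, 128, 186, 210.2, 208 and 200.02 CPM from d0 to d12. The line with the higher level changed from shDIS3L2 at d6 and d8 to shLacZ at d10 and d12, and at d8 TMM scaling put shLacZ above. The log2 fold change over d6 to d12 was -0.04 with a standard error of 0.088 (edgeR adjusted p = 0.731), which leaves small differences undetected.

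Itga8 (chromosome 2, 12106632 to 12301922), the nephronectin receptor chain, whose window before the start held none of the motifs, was counted at 0.351, 6.25, 48.2, 9.40, 17.0, 13.3 and 13.9 CPM from d0 to d12 in shLacZ. In shDIS3L2 it was counted at 0.302, 5.93, 61.7, 16.6, 56.3, 48.7 and 46.4 CPM. Both lines had a peak at d4 and fell to d6, by 5.13-fold in shLacZ and 3.72-fold in shDIS3L2, after which the level of shDIS3L2 returned close to its peak and that of shLacZ did not. The fold between the lines was 0.949 at d2 (0.747 to 1.2), 1.77 at d6 (1.40 to 2.24), 3.30 at d8 (2.90 to 3.77), 3.66 at d10 (3.0 to 4.49) and 3.34 at d12 (2.76 to 4.06). Over d6 to d12 the log2 fold change was 1.55 (standard error 0.18, edgeR adjusted p = 0.0012), and it passed in each fit without 1 day. Its exons share 372 bases with E030013I19Rik on the opposite strand, which was counted at no more than 1.12 CPM in any library. Kidney mesenchyme and podocyte markers summed from d6 on to between 878 and 1151 CPM in shLacZ and between 498 and 879 CPM in shDIS3L2. Of the 8 tested, 4 were higher and 1 lower, beside 19.6% and 18.7% of all genes. Their part in the levels of Itga8 was not tested.

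The Itgav partners followed a different course from each other. Itgb5 (chromosome 16, 33829665 to 33949153) was counted at 35.2, 24.3, 58.4, 79.3, 44.2, 54.7 and 75.0 CPM in shLacZ and at 30.4, 21.7, 73.6, 119, 124, 129 and 109 CPM in shDIS3L2. From d6 on its levels in the lines did not overlap, for which no share over all genes was counted. Between d6 and d8 shLacZ dropped to 0.557 of its level and shDIS3L2 did not (1.04). Its log2 fold change was 0.95 (standard error 0.17, edgeR adjusted p = 0.0060). Genes of chromosome 16 had a median log2 fold below that of the other chromosomes on each day. The difference was -0.230 at d2 and -0.049 at d12, and the part of this in the values of Itgb5 was not tested.

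Itgb3 (chromosome 11, 104608000 to 104670476), the beta chain of the platelet fibrinogen receptor, was counted at 2.63, 1.93, 2.23, 5.41, 22.8, 14 and 5.55 CPM in shLacZ and at 1.96, 1.64, 0.242, 10.4, 42.3, 24.3 and 21.1 CPM in shDIS3L2. Its level at d4 in shDIS3L2 came from 5 reads, and it was 9.23-fold lower than in shLacZ there (fold 0.108, 0.0311 to 0.310). Both lines peaked at d8, and the fold between them was largest at d12 (3.79, 2.82 to 5.18). The log2 fold change over d6 to d12 was 1.10 (standard error 0.19, edgeR adjusted p = 0.0050). Blood and platelet markers also summed to their highest level at d8, with 798 CPM in shLacZ and 1301 CPM in shDIS3L2, and at d12 to 9.42 and 43.9 CPM, with up to 3 of the 9 markers at 0 counts from d6 on. Their part in the levels of Itgb3 was not tested.

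Itga4 (chromosome 2, 79255426 to 79333123), the Vcam1 receptor chain of blood and mesoderm cells, had the largest log2 fold change of the 10 between the lines over d6 to d12. In shLacZ it was counted at 0.0251, 5.19, 2.65, 32.5, 6.33, 4.6 and 7.74 CPM from d0 to d12, and in shDIS3L2 at 0.0378, 4.53, 1.45, 193, 68.0, 33.2 and 18.2 CPM. Both lines rose sharply from d4 to d6, by 12.3-fold in shLacZ (7.76 to 20.6) and 133-fold in shDIS3L2 (92.8 to 197), and fell afterwards. The fold between the lines was 5.93 at d6 (5.34 to 6.59), 10.7 at d8 (8.82 to 13.2), 7.21 at d10 (5.2 to 10.3) and 2.35 at d12 (1.80 to 3.09). Its log2 fold change over d6 to d12 was 2.56 (standard error 0.31, edgeR adjusted p = 0.0016). The gene shares 1124 exon bases with Cerkl on the opposite strand, and Cerkl was counted at no more than 0.877 CPM in any library.

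Itga9 (chromosome 9, 118606690 to 118901003), the tenascin receptor chain, was counted at 2.46, 2.24, 15.3, 17.0, 14.6, 16.7 and 15.3 CPM in shLacZ and at 1.62, 2.01, 14.8, 16.9, 38.9, 57.5 and 54.8 CPM in shDIS3L2. In shLacZ it was level from d4 on, and in shDIS3L2 it did not differ from shLacZ beyond counting error at d6 (fold 0.993, interval 0.812 to 1.21) and was higher from d8. The fold was 2.67 at d8 (2.31 to 3.10), 3.44 at d10 (2.88 to 4.13) and 3.59 at d12 (3.0 to 4.31). The log2 fold change over d6 to d12 was 1.27 (standard error 0.29, edgeR adjusted p = 0.0148), and it did not pass without d8 (adjusted p = 0.0783) or d10 (0.0820). Itgb1 likewise did not pass without d8 (0.0681) or d10 (0.0630).

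**Figure D4:**
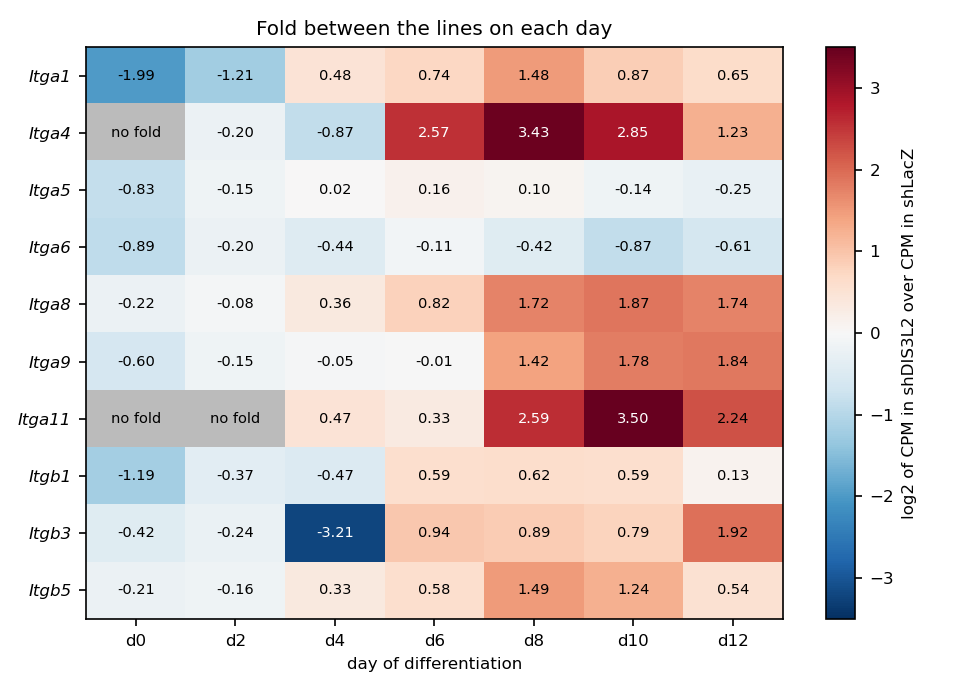
Log2 fold of CPM in shDIS3L2 over shLacZ for each subunit (rows) and day (columns), 1 library per line, with the value in each cell and grey cells where both libraries had 3 reads or fewer. By library totals, each cell with a fold at d0 and d2 is blue, and red cells lead from d6 on, with the highest value for Itga11 at d10 and Itga4 at d8.

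On single days, protein-coding genes that reached 1 CPM in either library of the day were compared, and those with a 3-fold or larger difference were counted. No subunit passed at d0, where 2.96% of genes did in either direction, or at d2, where 0.258% did, and 1, Itgb3, was lower at d4, where 2.05% of genes passed. Itga4 alone was higher at d6, where 2.73% of genes were higher and 4.27% lower. At d8 the higher subunits were Itga4, Itga8 and Itga11 (5.5% of genes higher, 3.77% lower), at d10 Itga4, Itga8, Itga9 and Itga11 (8.62% and 3.17%) and at d12 Itga8, Itga9, Itga11 and Itgb3 (8.17% and 1.42%). No subunit was at least 3-fold lower from d6 on. All 8 subunits with a fold at d0 were below 1, with a median log2 fold of -0.72 where the median of all genes was -0.32, and with TMM scaling or DESeq2 size factors Itga8 and Itgb5 turned to above 1. These day folds have no replicate check.

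Over all 7 days, Itga8 was higher in shDIS3L2 (log2 fold change 0.98, standard error 0.25, edgeR adjusted p = 0.0473) and Itga6 lower, and the other 8 did not pass, where 1.91% of 20050 genes were higher and 3.82% lower. Both calls were lost when d6, d8, d10 or d12 was left out. The calls over all genes then fell from 1147 to 102, 13, 8 and 12, so the loss was not particular to Itga8 and Itga6. The line difference itself changed from d0, d2 and d4 to d6 to d12 for 3 subunits, each towards shDIS3L2, where 4.85% of genes changed upward and 5.24% downward. They were Itga4 (2.84, standard error 0.54, edgeR adjusted p = 0.0124), Itga8 (1.32, 0.27, adjusted p = 0.0165) and Itgb1. For the other 7 the change ranged from -0.54 for Itga11 to 1.73 for Itgb3 and did not pass. Library totals in place of TMM turned the split over all genes from 972 upward and 1051 downward into 1135 and 415. Leaving out d2 reduced the 3 calls to 1, and those over all genes from 2023 to 524.

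When only d6 and d12 were used, the later days on which Dis3l2 was lower in shDIS3L2 beyond counting error, none of the 15950 genes tested by edgeR passed, with 3149 at an unadjusted p under 0.05. Of the subunits, 8 were higher and 2 (Itga5 and Itga6) lower there, and 4 had an unadjusted p under 0.05, with log2 fold changes of 1.99 for Itga4, 1.41 for Itgb3, 1.27 for Itga8 and 0.54 for Itgb5.

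Of the 11 alpha and 6 beta subunits outside the list, 8 and 5 were tested over d6 to d12, with 2 alpha subunits higher and none lower and 2 beta subunits higher and 1 lower, where 19.6% of all genes tested were higher and 18.7% lower, so that these counts are not read as a result about the lists. Itgav, the partner of Itgb3 and Itgb5, ranged from 85.5 to 132 CPM in shLacZ and from 99.0 to 148 CPM in shDIS3L2 (log2 fold change 0.21, standard error 0.068, edgeR adjusted p = 0.0441). Itgb4, which pairs with Itga6, was lower in shDIS3L2 like its partner, with 16.4 to 26.8 CPM in shLacZ and 7.63 to 13.7 CPM in shDIS3L2 (-0.95, 0.13, adjusted p = 0.0020). Itgb8 was higher, at 8.40 to 15.9 CPM against 2.48 to 7.44 CPM (1.36, 0.32, edgeR adjusted p = 0.0157). The leukocyte chains Itgax and Itgb2 passed as well, at no more than 3.5 and 2.62 CPM from d6 on. Itga3, another laminin receptor chain, ranged from 44.9 to 121 CPM in shLacZ and 39.7 to 87.0 CPM in shDIS3L2 and did not pass (edgeR adjusted p = 0.0539), and neither did Itga2b, the platelet partner of Itgb3, with 7.54 to 14.2 and 6.65 to 16.6 CPM. Itga7 reached 11.7 CPM at d6 in shDIS3L2 against 2.78 CPM (adjusted p = 0.0681), and Itga10 stayed between 0.694 and 3.56 CPM (edgeR adjusted p = 0.0557). Itgb7 was highest at d0, with 20.0 CPM in shLacZ and 8.31 CPM in shDIS3L2, and Itga2, Itgae, Itgal, Itgam and Itgb6 stayed at or below 4.84 CPM. Itgad and Itgb2l never reached 1 CPM.

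**Figure D5:**
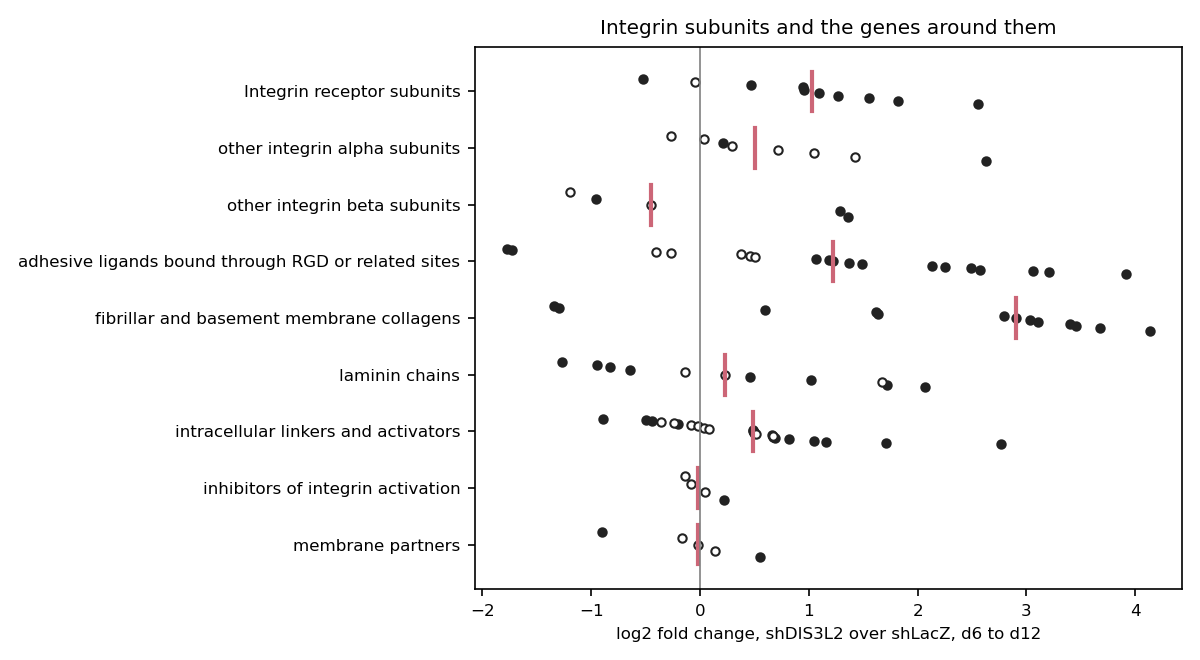
Log2 fold change between the lines over d6 to d12 for each gene tested in the subunit list and in 8 lists of genes around integrins, filled for edgeR adjusted p under 0.05, with the median of each list as a red bar. The collagens have the highest median, 2.91, and the subunits lie at 1.03.

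The ligands of these receptors were compared over the same days, in the fit that called 19.6% of all genes higher and 18.7% lower. Of 13 collagen genes, 11 were higher in shDIS3L2 and 2 lower (median log2 fold change 2.91), led by Col6a2 (4.14), Col1a2 (3.68), Col1a1 (3.46) and Col6a3 (3.40). Col1a1, a ligand of Itga1 and Itga11, ranged from 32.3 to 355 CPM in shLacZ and from 307 to 3539 CPM in shDIS3L2, whereas the basement membrane collagen Col4a1, bound by Itga1, was lower (-1.34, standard error 0.090, edgeR adjusted p = 0.00034). Of 19 tested ligands of the RGD and related kinds, 12 were higher and 2 lower (median 1.22), with Tgfb3 (3.92), Vcam1 (3.21), Postn (3.06) and Emilin1 (2.57) first. Vcam1, the ligand of Itga4, rose from 0.301 CPM at d6 to 5.95 CPM at d12 in shLacZ and from 4.24 CPM to a highest level of 53.6 CPM at d10 in shDIS3L2, so that it was still low on the day when Itga4 peaked. Like Col4a1, the ligands Fn1, Npnt and Tnc were named for the member they bind, with their values already known. Fn1, bound by Itga5, was higher in shDIS3L2 by 1.49 (0.15, edgeR adjusted p = 0.00086) although Itga5 did not differ detectably. Npnt, bound by Itga8, was higher by 1.07 (0.10, edgeR adjusted p = 0.00076), and Tnc, bound by Itga9, by 2.25 (0.14, adjusted p = 0.00032).

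Of 11 laminin chains, 4 were higher and 4 lower (median 0.23), beside 19.6% and 18.7% of all genes. The higher ones included Lama2 (2.07), Lamc3 (1.72) and Lama4 (1.02), and Lama1, a chain of the early basement membrane that Itga6 binds, was lower (-1.27, standard error 0.14, edgeR adjusted p = 0.0011), from 830 to 7092 CPM in shLacZ and 238 to 3816 CPM in shDIS3L2. Lama5, also named with its values known, was lower as well (-0.65, standard error 0.096, edgeR adjusted p = 0.0029). Epithelial markers, the cells in which Itga6 and Itgb4 are usually found, summed to between 1757 and 2136 CPM in shLacZ and between 904 and 1420.2 CPM in shDIS3L2 from d6 on (4 of 6 lower, none higher), and their part in the lower Itga6 was not tested.

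Inside the cell, 11 of 24 linkers and activators that join integrins to actin were higher and 4 lower (median 0.49), beside 19.6% and 18.7% of all genes, led by Tns1 (2.77), Lims2 (1.71), Tns2 (1.16) and Flna (1.05). The tensin Tns1 ranged from 10.5 to 25.7 CPM in shLacZ and from 47.1 to 202 CPM in shDIS3L2. Of 4 inhibitors of integrin activation, 1, Nisch (0.22), was higher and none lower (median -0.02). Of 5 membrane partners, Cd47 (0.55) was higher and the tetraspanin Cd9 (-0.90) lower (median -0.02). The counts of inhibitors and partners lie near those shares of all genes, and the median over all genes was 0.02.

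Among 11559 protein-coding genes that reached 10 CPM, those with the most similar course over the 14 libraries, by Pearson's r of log2(CPM + 1), were Cast (0.995) and Dzip3 (0.994) for Itgb1, Neo1 (0.989) and Chd3 (0.985) for Itga9, and Piezo2 (0.986) and Bcl9 (0.971) for Itga8. They were Tbc1d9b (0.986) and Zfp358 (0.984) for Itga5, Fign (0.962) and Ttc26 (0.953) for Itga1, Tnnt3 (0.951) and Asb3 (0.95) for Itga4, and Pknox2 (0.968) and Lclat1 (0.960) for Itgb5. For Itgb3 they were the globin gene Hba-a2 (0.95) and the endothelial gene Emcn (0.949), for Itga6 Esyt3 (0.941) and Pllp (0.923), and for Itga11 Cttnbp2 (0.965) and Hoxa11 (0.949). The libraries share lines and the course of differentiation, so these values are descriptions.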

How the data were processed

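PolyA+ RNA of 2 lines at 7 days (1 library each, 14 in all) was sequenced. The authors aligned reads with Subread 1.6.3 to GRCm38 (Ensembl release 88) and counted them per gene with featureCounts 1.6.3, and the deposited counts are whole reads without normalization. The strand setting of the counting is not given in the sources used here. The authors also deposited CPM from edgeR for 16181 protein-coding genes, which served to pick members by symbol and as an alternative. The 7 columns of the knockdown line carry another short name in the files, and the study's supplementary copy of the table heads the same columns shDis3l2. The deposited gene length column gave RPKM. No column belonged to another sample (0 found).

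CPM was recomputed here from counts over library totals. The tests were run in R 4.3.3 with edgeR 4.0.16, by quasi-likelihood after filterByExpr and TMM scaling, with a term for the day and a Benjamini-Hochberg adjusted p under 0.05 as the threshold. They compared the lines over d6 to d12 and over d0 to d12, asked whether the line difference changed between d0 to d4 and d6 to d12, and compared d6 to d12 with d0. DESeq2 1.42.0, other scalings, no filter, no day term and leaving out each day were alternatives. In the comparisons of the lines the days of 1 series stand in for replicates, and in the comparison with d0 the 2 lines do. The p-values thus measure only the spread between these libraries. Day folds have 95% Clopper-Pearson intervals, which cover counting error only, since PCR copies of a molecule could not be told from separate molecules. The fold criterion for single days was 3, and the floor was 3 counts. Totals of 7178712 to 39888099 counts per library set the precision. Named genes are all 10 members, other subunits reaching 1 CPM, up to 4 genes per list with the largest change among those passing over d6 to d12, and the 2 most similar genes of each member. The ligands Col4a1, Fn1, Npnt, Tnc and Lama5 were named outside this rule. The members and lists were chosen with earlier results of these data known. Scripts were tested on simulated data. Python 3.11.15, numpy 2.4.6, pandas 2.3.3, scipy 1.17.1 and matplotlib 3.10.9 were used.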

Additional observations from a re-analysis of the deposited data

Results flagged for a closer look

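The difference between the lines over d6 to d12 itself differed from that over d0 to d4 for 3 of the 10 subunits by the edgeR test of the interaction, with log2 values of 2.84 for Itga4, 1.32 for Itga8 and 0.98 for Itgb1. The change of Itgb1 passed in 11 of 11 alternatives, that of Itga4 in 10 and that of Itga8 in 8. With 1 library per line and day, no group held enough libraries for a search for outlying samples.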

How the results depend on the processing

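Over d6 to d12, without the day term 3341 genes, 5 subunits higher and 0 lower passed in place of 6574, 8 and 1. With d6 and d12 only, chosen after seeing the data, these were 0, 0 and 0. Leaving out 1 day gave 3336 to 6678 genes, 5 to 8 subunits higher and 0 to 1 lower. Over d0 to d12, 1147 genes, 1 subunit higher and 1 lower became 2522 genes and 2 higher with DESeq2, 2093 and 4 without a filter, 0, 0 and 0 without the day term, and 0 higher with library totals. Leaving out 1 day gave 8 to 2190 genes, 0 to 3 higher and 0 to 1 lower. For the change of the line difference, 2023 genes became 3279 without a filter, and 3 subunits became 5 with library totals, 6 with DESeq2 and 7 without a filter. Leaving out 1 day gave 524 to 2151 genes and 1 to 5 subunits. A 2-fold criterion put 1 subunit lower at d0, 1 at d2 and 6 higher at d8, and without a minimum CPM 1 was lower at d0. The shares of all genes under these settings are not given here, so these counts are not read as a result about the subunits. The causes were not tested. The rise from d0 kept 9 to 10 subunits in all 11 alternatives. No value of a subunit that passed reversed. The day term pairs the lines within a day, and the labels give no replicate numbers for another pairing. Depth limited Itga11, with 29 reads at most.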
